A study of Homo sapiens with 24 samples.

Results

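The glucose transporter genes SLC2A1, SLC2A3, SLC2A4, SLC2A6, SLC2A8, SLC2A10, SLC2A12 and SLC2A13, and the arrestin-domain genes TXNIP and ARRDC4, were followed in HT29 cells exposed to Propionibacterium freudenreichii products and to TRAIL. These 10 genes were taken as every probe carrying 1 of these symbols and not marked as a control, which gave 15 of the 50599 probes and 10 of the 36337 probe names on the array. The HT29 line comes from a human colon adenocarcinoma and was kept here in high-glucose DMEM with fetal calf serum. RNA was taken after 6 h from 6 groups of 4 arrays each. NT was left untreated. C3/C2 received 30 mM propionate and 15 mM acetate as sodium salts. SN received supernatant of a P. freudenreichii culture grown in DMEM, at a 2-fold dilution, of which C3/C2 mimics the content of these acids. TRAIL, a ligand of death receptors, was given as a Flag-tagged protein at 100 ng/ml with 2 µg/ml of antibody against the tag, alone or together with C3/C2 or SN. What else SN holds or lacks, including its glucose, is not given in the sources used here.

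Proteins of the SLC2A (GLUT) family differ in tissue, affinity and place in the cell. Most carry glucose and related sugars down their gradient across membranes, without energy input, while SLC2A13 is a proton myo-inositol cotransporter. TXNIP and ARRDC4 are arrestin-domain proteins that lower glucose uptake, TXNIP by binding SLC2A1 and driving its removal from the cell surface, and TXNIP also binds thioredoxin. Both genes are textbook targets of the glucose-sensing factors MondoA and ChREBP, which pair with Mlx and bind carbohydrate response elements, tandem E boxes with a short spacer.

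All 10 epithelial marker genes looked at (among them EPCAM, KRT20 and VIL1) were well above background on all 24 arrays. Of the 4 fibroblast markers, LUM was on 24 arrays, COL1A1 on 16 and COL1A2 and DCN on none. Of 6 genes of muscle or fat, the tissues known for SLC2A4, ACTA1 was on 24 arrays, CKM on 14, PLIN1 on 12, MYH7 on 3, FABP4 on 1 and ADIPOQ on none. The summed log2 level of those 6 genes was -3.66 to -3.01 in NT, -3.56 to -3.12 in TRAIL and between -2.26 and -1.10 in the other groups. The summed levels of the 4 leukocyte markers (0.61 to 1.00 in NT, 1.62 to 2.23 in the 4 groups with C3/C2 or SN) and the 4 fibroblast markers (-2.88 to -2.33 in NT, -0.92 to 0.41 in those groups) also moved with C3/C2 and SN. The 3 endothelial markers were on all 24 arrays, with sums of -2.33 to -2.02 in NT, -1.61 to -1.21 with C3/C2 and -2.22 to -1.66 with SN. For all these lists their part in the results was not tested. Levels below are log2 values after subtraction of each array's 75th percentile (453.4 to 1009 intensity units), and the arrays of a group correlated at 0.993 to 0.998 over the genes tested. NT and C3/C2 lay on slides 1 and 2, SN and TRAIL on slide 3 and both co-treatments on slide 4, so that only C3/C2 against NT, SN against TRAIL and the co-treatments against each other stay within slides. In bulk RNA, fewer cells of a type and less RNA per cell cannot be told apart.

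A gene was called when its limma fold change was at least 2 and its adjusted p under 0.05 among 20703 genes, and 9 of the 10 members could be tested. C3/C2 gave 4 higher calls (SLC2A4, SLC2A8, SLC2A12 and ARRDC4) and 0 lower, against 13.4% and 6.18% of all genes. SN gave 3 higher (SLC2A1, SLC2A4 and SLC2A8) and 1 lower (TXNIP), against 14.2% and 9.75%. TRAIL alone gave 0 higher and 1 lower (SLC2A12), against 0.749% and 2.18%; 6 members had an unadjusted p under 0.05 there. TRAIL+C3/C2 gave 2 higher (SLC2A4 and SLC2A8) and 0 lower, against 16.2% and 7.94%, and TRAIL+SN gave the same 4 calls as SN, against 16.1% and 10.1%. With each array's median as the scale, C3/C2 gave 9.67% of all genes higher and 11.3% lower, against 12.2% and 12.1% with SN, 11.1% and 15.1% under TRAIL+C3/C2, and 12.9% and 13.9% under TRAIL+SN. The median of all genes then moved by -0.22, -0.15, -0.25 and -0.16 (log2) against NT in these groups, from 0.08, -0.02, 0.10 and 0.04 with the 75th percentile. Scaling on spike-in controls placed it at -0.10, 0.05, -0.61 and -0.49. The median log2 change of the 9 members was 0.73 under C3/C2, 0.67 under SN and -0.16 for TRAIL, and 0.76 and 0.62 for the co-treatments with C3/C2 and SN. The share of higher genes among all calls ran from 21.2% to 54.9% over spike-in and array-median scaling for C3/C2 and the co-treatments, from 68.5%, 67.2% and 61.3%, and with spike-in scaling TRAIL went from 25.5% to 9.43%.

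SLC2A4 (GLUT4), the insulin-regulated transporter of muscle and fat, showed the largest change of the 10 genes. Its probe (NM_001042, chr17:7191110-7191169 of hg19, plus strand) was well above background on 0 of 4 arrays in NT and 0 of 4 in TRAIL, and on 4 of 4 in each of the other groups. Its deposited intensity was 3.29, 3.45, 4.14 and 3.83 on the NT arrays and 3.71, 3.45, 3.70 and 3.18 with TRAIL. It was 568.3, 690.5, 567.3 and 643.0 with C3/C2 and 251.9, 282.4, 242.1 and 226.8 with SN. The co-treatments gave 291.8, 266.4, 209.0 and 233.7 with TRAIL+C3/C2 and 136.2, 133.4, 110.9 and 114.0 with TRAIL+SN. No array of the first pair of groups came near any array of the other groups.

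Because the probe was dim in NT, only lower bounds of its fold change could be given, from the lowest level that passed as well above background on each NT array. The bound was at least 39.3-fold higher for C3/C2 (adjusted p = 3.62e-21) and at least 26.6-fold when TRAIL was added to it (4.33e-21). For SN it was at least 17.4-fold (4.67e-20), and for SN given together with TRAIL at least 12.6-fold (3.85e-20). Within slide 3, SN was at least 14.2-fold above TRAIL (adjusted p = 8.38e-20). The adjusted p-values beside these bounds belong to the limma changes, which took the NT and TRAIL readings at background as they stood. The bounds themselves were not tested. The order of the log2 levels was C3/C2 (-0.42 ± 0.03, SD, n = 4), TRAIL+C3/C2 (-0.99 ± 0.18), SN (-1.60 ± 0.17) and TRAIL+SN (-2.07 ± 0.23), and no neighbours in it overlapped. SLC2A4 was 2.26-fold lower with SN than with C3/C2 (log2 difference -1.18 ± 0.11 SE, adjusted p = 3.15e-08) and 2.11-fold lower with TRAIL+SN than with TRAIL+C3/C2 (-1.08 ± 0.11, 1.59e-07), the latter on 1 slide. Without TRAIL+C3/C2 replicate 1 this last difference was -0.9995 and just missed the 2-fold limit; it was -0.93 with the array median as the scale, -0.89 with spike-in controls and -0.81 with normexp, none of them called, and spike-in scaling also took SN against C3/C2 to -0.93. TRAIL+C3/C2 lay below C3/C2 by 0.57 (log2; adjusted p = 0.000360) and TRAIL+SN below SN by 0.47 (0.00440), both under 2-fold and both across slides. These bounds hold on the deposited background-subtracted scale: normexp background correction, which lifts dim probes, gave log2 changes of 3.56 with C3/C2 and 2.55 with SN, below the bounds, both called.

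SLC2A1 (GLUT1), the basal transporter of most cultured cells, was bright on every array. Its probe (NM_006516, chr1:43391874-43391933, hg19, minus strand) gave log2 levels of 4.73, 4.78, 4.60 and 4.45 in NT. They were 5.47, 5.43, 5.30 and 5.29 with C3/C2 and 5.86, 5.97, 5.80 and 5.80 with SN. All SN arrays lay above all C3/C2 arrays, and those above all NT arrays. TRAIL alone gave 4.78, 4.93, 4.67 and 4.65, which overlapped NT. The co-treatments gave 5.55, 5.46, 5.26 and 5.33 with C3/C2 and 6.17, 6.03, 5.94 and 5.81 with SN.

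**Figure D1:**
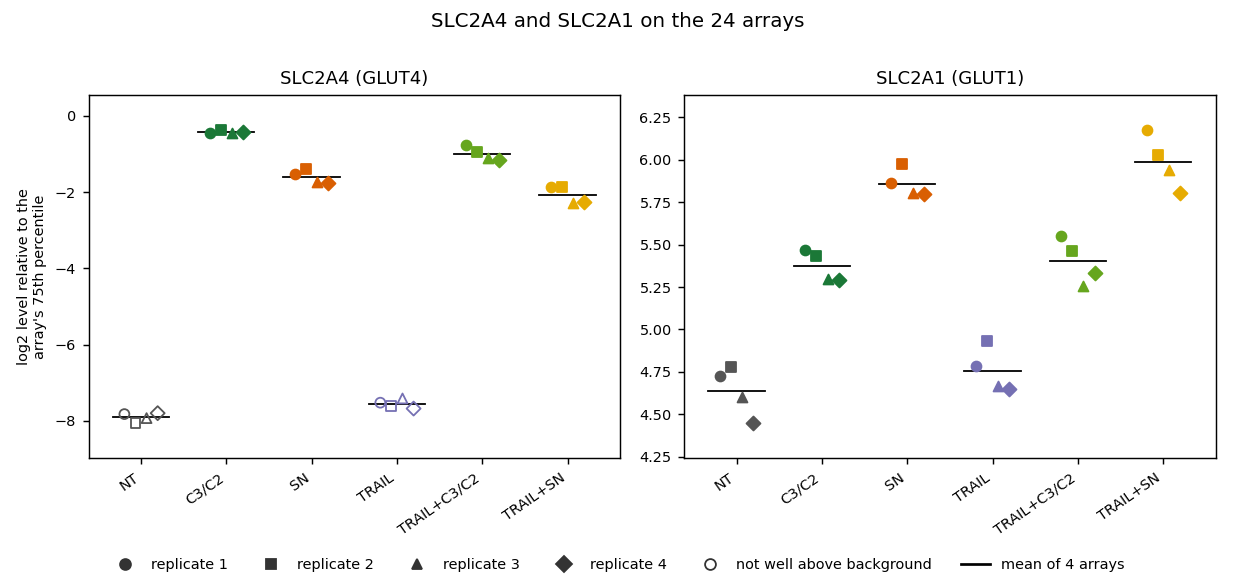
Log2 level relative to the array's 75th percentile (y axis) of SLC2A4 (left) and SLC2A1 (right) in the 6 groups (x axis); each symbol is 1 array, shaped by replicate number, open where the probe was not well above background, and bars are means of 4 arrays. SLC2A4 is open in NT and TRAIL and highest with C3/C2, whereas SLC2A1 is highest in the groups with SN.

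SLC2A1 rose 2.33-fold with SN (log2 change 1.22 ± 0.09 SE, adjusted p = 1.01e-10) and 2.55-fold with TRAIL+SN (1.35 ± 0.09, 1.79e-11). The changes with C3/C2 (0.73 ± 0.09, 3.18e-07) and TRAIL+C3/C2 (0.76 ± 0.09, 1.51e-07) passed the adjusted p but not the 2-fold limit, and that with TRAIL (0.12 ± 0.09, 0.332) passed neither. SN stood above C3/C2 by 0.49 (95% interval 0.30 to 0.67, adjusted p = 0.000141), and TRAIL+SN above TRAIL+C3/C2 by 0.59 on 1 slide (2.77e-05). Within slide 3, SLC2A1 was higher with SN than with TRAIL by 1.10 (adjusted p = 5.69e-10), but by 0.87 with the array median, 0.79 as the mean of both probes and 0.48 on the second probe (adjusted p = 0.0289), none called. Scaled on spike-in controls, the changes against NT were 1.29 with SN, 0.82 with TRAIL+SN, which ended that call, and 0.05 with TRAIL+C3/C2. A second, dim probe (A_33_P3344801, well above background on 23 of 24 arrays) gave log2 changes of 0.63 for C3/C2, 0.98 for SN, 0.50 for TRAIL, and 0.94 and 1.36 for the co-treatments with C3/C2 and SN.

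SLC2A3 (GLUT3), a high-affinity transporter best known from neurons, could not be tested. Both of its probes were well above background on 0 of 24 arrays, with log2 levels between -7.95 and -6.69, and SLC2A3 shares near-identical sequence with its neighbour SLC2A14. Levels of probes at background carry no order.

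SLC2A8 (GLUT8), a transporter of internal membranes, was the only other transporter called in every group that held C3/C2 or SN. Its probe A_23_P252783 (NM_014580, chr9:130169819-130169878, hg19, plus strand) read 3.49, 3.38, 3.26 and 3.32 in NT and 3.64, 3.70, 3.66 and 3.65 with TRAIL. The levels were 4.35, 4.30, 4.44 and 4.39 with C3/C2, and 4.80, 4.84, 4.66 and 4.58 with SN. TRAIL+C3/C2 gave 4.68, 4.60, 4.54 and 4.57, and TRAIL+SN 4.87, 4.87, 4.55 and 4.68. The lowest array with C3/C2 or SN stood above the highest NT and TRAIL arrays, and TRAIL itself stood above NT without overlap.

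SLC2A8 rose 2.01-fold with C3/C2 (log2 change 1.01 ± 0.07 SE, adjusted p = 6.66e-11), 2.57-fold with SN (4.15e-13), 2.36-fold with TRAIL+C3/C2 (1.95e-12) and 2.61-fold with TRAIL+SN (2.84e-13). With TRAIL it was 1.23-fold higher (adjusted p = 0.00262), under the 2-fold limit and across slides. Spike-in scaling took this TRAIL change to 0.03 (log2). On the second probe TRAIL (-0.45 to -0.09) overlapped NT (-0.58 to -0.28). The C3/C2 call sat on the 2-fold limit: it fell to 0.98, 0.99 and 0.99 when the third NT array, the fourth NT array or the third C3/C2 array was left out, and to 0.71 with the array median as the scale. That scale also ended the TRAIL+C3/C2 call (0.89), and spike-in scaling gave 0.83 with C3/C2, 0.52 under TRAIL+C3/C2 and 0.86 under TRAIL+SN, none called. SN stood above C3/C2 by 0.35 (0.000385), and TRAIL+SN above TRAIL+C3/C2 by 0.14 (95% interval -0.0034 to 0.29, adjusted p = 0.118), which passed the adjusted p under the other 4 scalings and background corrections (0.19 to 0.33) and was -0.04 on the second probe (0.844). The second SLC2A8 probe gave smaller changes, called with SN (1.12) and not with C3/C2 (0.78), TRAIL+C3/C2 (0.76) or TRAIL+SN (0.72).

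SLC2A6 (GLUT6), another transporter of internal membranes, was measured by 2 bright probes that did not give the same answer. The brighter, A_33_P3337044 (chr9:136336469-136336528, hg19, minus strand), ran from 2.49 to 2.84 in NT, 3.14 to 3.44 with C3/C2, 2.66 to 3.09 with SN, 2.62 to 2.97 with TRAIL, 3.12 to 3.39 with TRAIL+C3/C2 and 3.04 to 3.53 with TRAIL+SN. It represented the gene and was not called: its log2 changes were 0.60 for C3/C2 (adjusted p = 8.59e-05), 0.24 for SN (0.0625), 0.12 for TRAIL (0.470), and 0.61 (6.81e-05) and 0.57 (0.000132) for the co-treatments with C3/C2 and SN. With spike-in scaling the changes were -0.11 under TRAIL+C3/C2 and 0.04 under TRAIL+SN. The C3/C2 change was 0.30 with the array median as the scale. Other scalings were run on this brighter probe only. The other, A_33_P3398912 (chr9:136336217-136336276), read 0.47, 0.62, 0.43 and 0.42 in NT, and 1.79, 1.76, 1.59 and 1.62 with C3/C2. It read 1.43, 1.71, 1.55 and 1.46 with SN and 1.24, 1.41, 1.08 and 1.26 with TRAIL. With TRAIL+C3/C2 it read 2.60, 2.61, 1.99 and 1.99, and with TRAIL+SN 2.47, 2.40, 1.94 and 1.96. NT overlapped no treated group on this probe, and replicates 1 and 2 lay above replicates 3 and 4 in both co-treatments.

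On that second SLC2A6 probe C3/C2 gave a change of 1.20 ± 0.14 (SE; adjusted p = 2.20e-07), SN of 1.05 (1.19e-06) and TRAIL of 0.76 (0.000372), and it was 1.81 under TRAIL+C3/C2 (3.47e-10) and 1.71 under TRAIL+SN (7.97e-10). TRAIL+C3/C2 exceeded C3/C2 by 0.61 (0.00235) and TRAIL+SN exceeded SN by 0.65 (0.00292). Both of these comparisons lay across slides. Spike-in scaling, which moves all genes of an array alike, took the median of all genes from 0.03 to -0.50 in the first and from 0.02 to -0.57 in the second. A gain with TRAIL on this probe therefore depends on the scale. The interaction terms were -0.15 ± 0.20 and -0.11 ± 0.20 (adjusted p = 0.795 and 0.751). Which of the probes tracks SLC2A6 better was not tested.

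**Figure D2:**
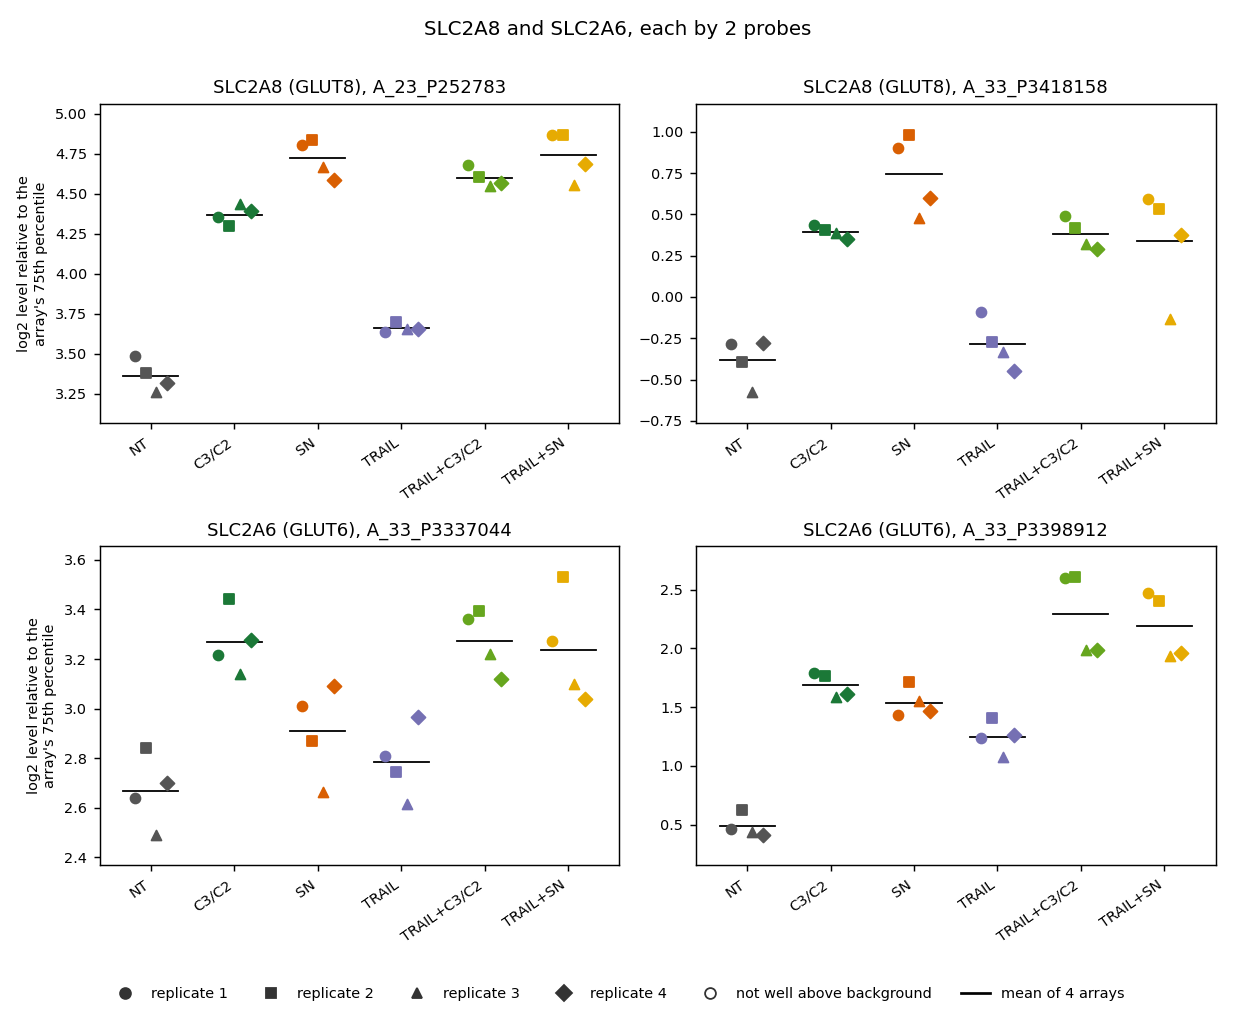
Log2 level relative to the array's 75th percentile (y axes, scaled separately) of SLC2A8 (top) and SLC2A6 (bottom), each by 2 probes, in the 6 groups; symbols are arrays shaped by replicate number and bars are means of 4 arrays. Both SLC2A8 probes stand higher in the 4 groups with C3/C2 or SN, and the 2 SLC2A6 probes differ in the size of every step.

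SLC2A10 and SLC2A13 were called in no comparison with NT. SLC2A10 (GLUT10), measured by 1 probe, lay between -2.89 and -1.94 on all 24 arrays and was not called in the other comparisons either; its highest values were with SN (0.33 above NT, adjusted p = 0.00896). With the array median as the scale its change with C3/C2 was -0.27 in place of 0.03. SLC2A13, the proton myo-inositol cotransporter HMIT, had log2 changes of 0.57 under C3/C2 (adjusted p = 0.0185), 0.51 under SN (0.0304), -0.49 under TRAIL (0.0683), 0.40 under TRAIL+C3/C2 (0.0849) and 0.62 under TRAIL+SN (0.00995), none of them 2-fold. Every one of these comparisons had overlapping arrays, but same-numbered arrays differed in the same direction in 4 of 4 pairs in each. With the replicate number as a block the adjusted p was 0.00698 with TRAIL and 0.0122 with TRAIL+C3/C2. Over the 5 scalings and background corrections run, the change ran from -0.76 to 0.10 with TRAIL and from -0.31 to 0.57 with TRAIL+C3/C2. Each of these 2 passed the adjusted p in 1 of the 5. C3/C2 and TRAIL+SN passed it in 2 of the 5, and SN in 3. The second SLC2A13 probe was well above background on 0 of 24 arrays.

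SLC2A12 (GLUT12) read -3.82, -3.89, -4.51 and -1.93 in NT, so NT replicate 4 stood apart from the other three. It read -2.23, -2.06, -2.59 and -2.53 with C3/C2 and -4.35, -4.41, -5.42 and -4.84 with TRAIL. The other groups ran from -3.07 to -2.49 with SN, -2.96 to -2.40 with TRAIL+C3/C2 and -3.45 to -2.87 with TRAIL+SN. SLC2A12 was called higher with C3/C2 (1.18 ± 0.36 SE, adjusted p = 0.00718) and lower with TRAIL (-1.22 ± 0.36, 0.0128), the latter -0.40 with normexp (adjusted p = 0.119), not called. Without NT replicate 4 the change was 1.72 with C3/C2, 1.21 with SN and 1.44 with TRAIL+C3/C2, all called, and -0.68 with TRAIL, not called. Leaving out TRAIL replicate 3, whose spot was not well above background, gave -0.999 with TRAIL, also not called, and TRAIL+C3/C2 replicate 4 gave 1.01 with TRAIL+C3/C2, called. Without NT replicate 3 the C3/C2 value was 0.86, not called, and it was 0.88 with the array median, 0.98 with quantile normalization and 0.72 with normexp, none called. With NT and C3/C2 alone in the fit the adjusted p of the C3/C2 change was 0.0639, and with NT and TRAIL alone that of the TRAIL change was 0.121. With slide as a block the adjusted p for C3/C2 was 0.0795, and on slide 2 alone the change was 1.05 (0.201).

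TXNIP fell in both groups with SN and was called in no group without it. Its probe (NM_006472, chr1:145442447-145442506, hg19) read 2.47, 2.41, 1.86 and 1.72 in NT and 2.95, 2.93, 2.15 and 2.05 with C3/C2. With SN it read 0.22, 0.27, 0.27 and 0.02. TRAIL alone gave 2.23, 2.27, 1.81 and 1.51. TRAIL+C3/C2 gave 2.73, 2.55, 2.14 and 2.12, and TRAIL+SN gave 0.26, 0.33, 0.40 and 0.01. Every array with SN lay below every array without it. In the 4 groups without SN, replicates 1 and 2 lay above replicates 3 and 4, a step that the groups with SN did not show.

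TXNIP was 3.79-fold lower with SN than in NT (log2 change -1.92 ± 0.22 SE, adjusted p = 1.22e-07) and 3.65-fold lower with TRAIL+SN (-1.87 ± 0.22, 1.72e-07). Taken within replicates 1 and 2 the difference between SN and NT was -2.20, and within replicates 3 and 4 it was -1.65. SN was 5.00-fold below C3/C2 (-2.32, 95% interval -2.79 to -1.86, adjusted p = 5.15e-08). The comparisons that stay within a slide gave -2.13 for TRAIL+SN against TRAIL+C3/C2 (2.46e-07) and -1.76 for SN against TRAIL (4.80e-07). Over the 5 scalings and background corrections run, the SN change lay between -2.05 and -1.85 and the TRAIL+SN change between -2.39 and -1.85. The C3/C2 change was 0.40 ± 0.22 (adjusted p = 0.125) and 0.0101 with the replicate number as a block, in each case under 2-fold, and 0.10 with the array median as the scale. TRAIL+C3/C2 (0.27, 0.296) and TRAIL (-0.16, 0.620) did not pass the test.

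ARRDC4, a close relative of TXNIP, was higher than in NT in both groups in which TXNIP fell, though under 2-fold there, and rose with C3/C2, where TXNIP was not called. Its probe (NM_183376, chr15:98516895-98516954, hg19) read -1.59, -1.30, -1.73 and -1.92 in NT and -1.91, -1.64, -2.01 and -2.24 with TRAIL. It read -0.53, -0.44, -0.60 and -0.61 with C3/C2 and -1.06, -0.92, -0.69 and -0.79 with SN. The co-treatments gave -0.79, -0.85, -0.54 and -0.56 with C3/C2 and -0.88, -0.91, -0.45 and -0.63 with SN. Every array with C3/C2 or SN lay above every array without them.

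ARRDC4 rose 2.13-fold with C3/C2 (log2 change 1.09 ± 0.14 SE, adjusted p = 4.22e-07); without NT replicate 4 this was 0.996, just under the limit, and it was 0.79 with the array median as the scale, 0.91 with spike-in controls and 0.96 with normexp. It was 1.70-fold higher with SN (3.56e-05), 1.93-fold with TRAIL+C3/C2 (2.44e-06) and 1.88-fold with TRAIL+SN (3.79e-06), past the adjusted p and short of 2-fold. Without NT replicate 2 both co-treatments passed 2-fold (1.06 and 1.03), and spike-in scaling gave 0.24 with TRAIL+C3/C2 (adjusted p = 0.184). SN and C3/C2 differed by -0.32 (95% interval -0.60 to -0.04, adjusted p = 0.0567), and TRAIL+SN and TRAIL+C3/C2 by -0.04 (-0.32 to 0.25, 0.867). The change of TXNIP less that of ARRDC4, relative to NT, was -2.69 with SN and -2.78 with TRAIL+SN, against -0.69 with C3/C2, -0.68 with TRAIL+C3/C2 and 0.15 with TRAIL.

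**Figure D3:**
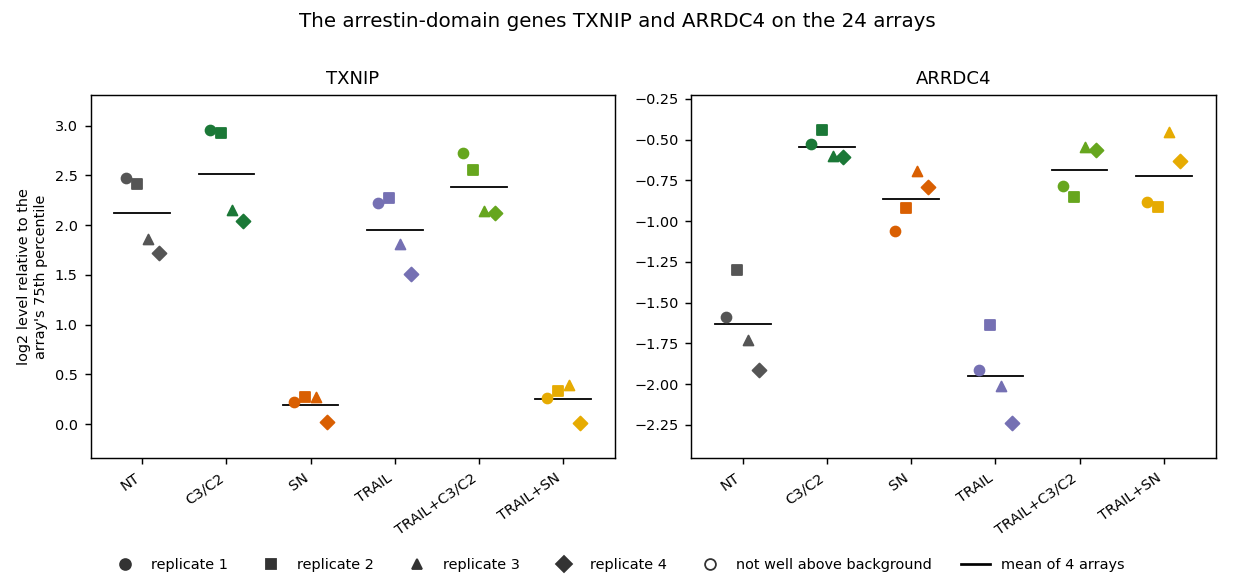
Log2 level relative to the array's 75th percentile (y axes, scaled separately) of TXNIP (left) and ARRDC4 (right) in the 6 groups; symbols are arrays shaped by replicate number and bars are means of 4 arrays. TXNIP drops to between 0.01 and 0.40 in the groups with SN, in which ARRDC4 stands above NT.

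The bases before the start of these 2 genes are shown because they hold the E boxes of the kind that carbohydrate response elements are built from, and because the genes parted in SN. The windows are the 250 bases before the start in RefSeq on GRCh38.p14, 5′ to 3′ on the gene's strand, and capitals mark CACGNG on either strand. TXNIP lies at chr1:145996580-145996829, minus strand, and ARRDC4 at chr15:97960453-97960702, plus strand.
TXNIP: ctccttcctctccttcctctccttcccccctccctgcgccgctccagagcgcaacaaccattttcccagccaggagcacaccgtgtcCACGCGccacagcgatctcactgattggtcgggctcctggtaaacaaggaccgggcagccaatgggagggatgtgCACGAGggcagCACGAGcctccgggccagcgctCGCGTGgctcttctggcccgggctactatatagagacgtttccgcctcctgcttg
ARRDC4: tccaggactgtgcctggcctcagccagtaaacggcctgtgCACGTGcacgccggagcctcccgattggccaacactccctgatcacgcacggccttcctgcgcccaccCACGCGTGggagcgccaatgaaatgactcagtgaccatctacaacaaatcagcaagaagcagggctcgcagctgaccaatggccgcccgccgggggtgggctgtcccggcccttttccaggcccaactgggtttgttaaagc
The TXNIP window held 4 such matches, and 2 of them (bases 88 to 83 and 77 to 72 before the start) stood in the same direction with 5 bases between them. The ARRDC4 window held CACGTG at bases 210 to 205, which reads the same on both strands, and 2 overlapping matches at bases 142 to 135, with no such pair. CACGNG occurred in 26.7% of the 35116 promoter windows of this length in the table. A pair with 5 bases between, counted in any mix of directions, occurred in 23 of these windows (0.0655%). A second TXNIP start in the table had no CACGNG, nor did the windows of SLC2A1, SLC2A8, SLC2A10 and SLC2A12. SLC2A6 and SLC2A13 had 1 position each. The search took exact letters and a spacer of exactly 5 bases, so it does not show that ARRDC4 lacks a carbohydrate response element. These are letters only, and binding was not measured here. Whether the windows bear on the parting of the 2 genes in SN was not tested.

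**Figure D4:**
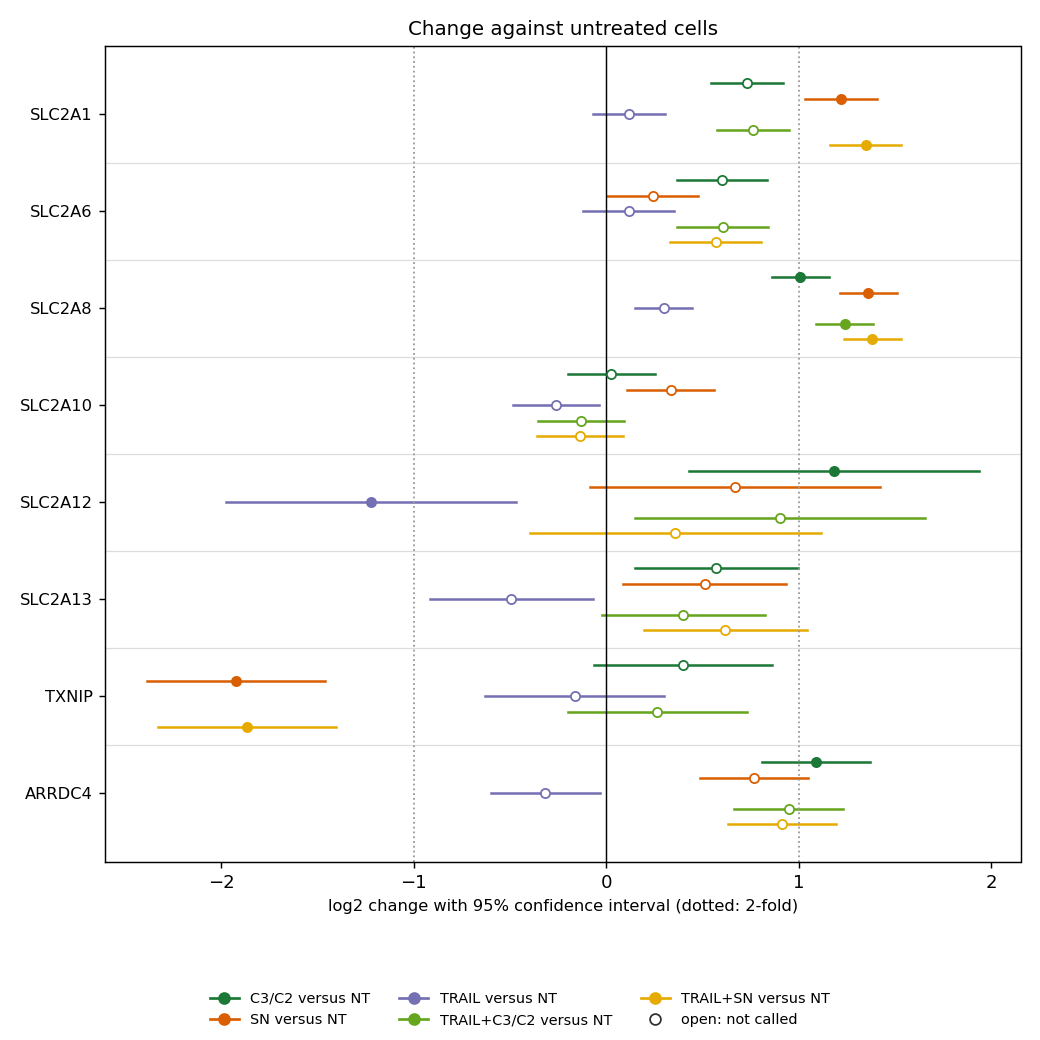
Log2 change against NT (x axis) of the 8 members with a measured NT level (y axis) for the 5 treatments; points are limma estimates, bars their 95% confidence intervals, filled points called genes, and dotted lines 2-fold. TXNIP is the only member below -1 with SN and TRAIL+SN, at -1.92 and -1.87.

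The direct comparison of SN with C3/C2 asks how the supernatant, with whatever else it holds or lacks, differs from its main acids. SN lay on slide 3 and C3/C2 on slides 1 and 2, so slide and treatment cannot be told apart in it. SN against C3/C2 gave 0 higher and 2 lower calls (SLC2A4 and TXNIP) among the 9 members, against 1.28% and 4.41% of all genes. TRAIL+SN against TRAIL+C3/C2 gave 0 higher and the same 2 lower calls, against 0.976% and 2.56%. In the first of these, 7 members had an unadjusted p under 0.05, and in the second 3, the third being SLC2A1, which was higher with SN. With the array median as the scale, 2.39% of genes were higher and 3.05% lower in the first comparison, and 1.75% and 1.68% in the second. SN against TRAIL, the comparison within slide 3, gave 6 higher calls (SLC2A1, SLC2A4, SLC2A8, SLC2A12, SLC2A13 and ARRDC4) and 1 lower (TXNIP), against 13.1% and 8% of all genes. SLC2A13 was at the limit there (1.00; 0.77 with the array median, 0.78 with quantile normalization, 0.23 with normexp) and lost the call without SN replicate 3 or 4 or TRAIL replicate 1, 2 or 3 (0.92 to 0.98). ARRDC4 lost it with the array median (0.85), quantile normalization (0.98), normexp (0.83) and without TRAIL replicate 4 (0.99), SLC2A8 with the array median (0.83) and SLC2A12 with normexp (0.83). With the array median it gave 2 higher and 1 lower, and the higher share of all calls went from 62.1% to 45% with that scale and to 82.7% with spike-in controls.

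**Figure D5:**
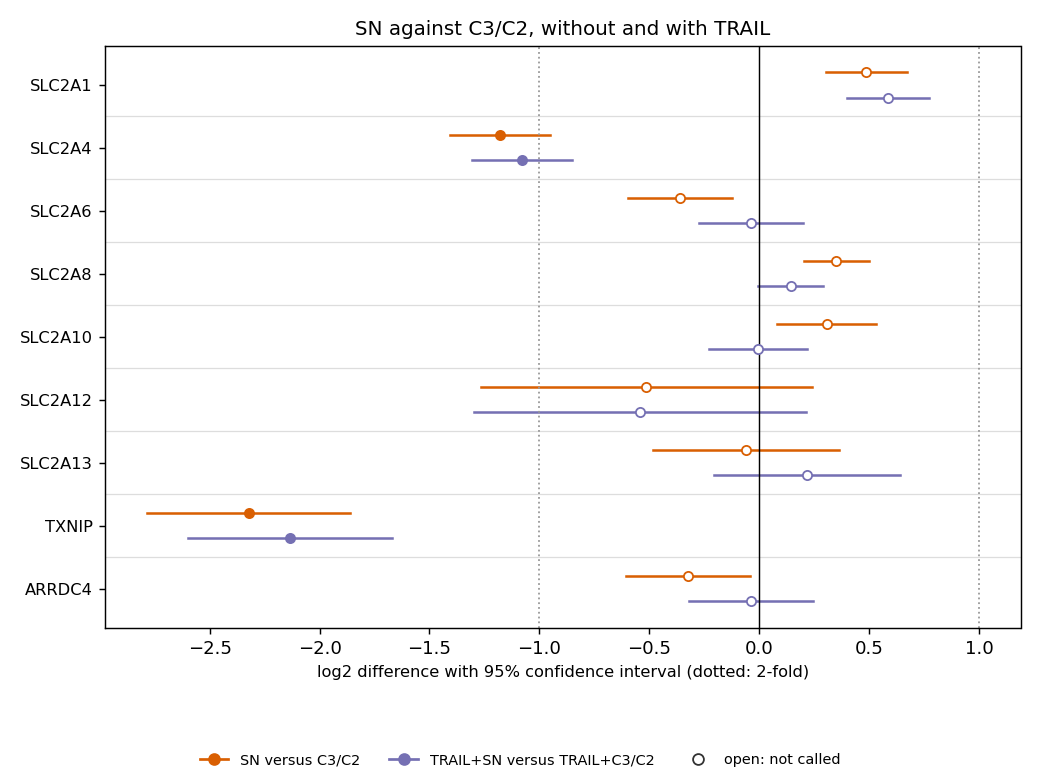
Log2 difference between SN and C3/C2 (orange) and between TRAIL+SN and TRAIL+C3/C2 (purple) for the 9 tested members (y axis); points are limma estimates, bars 95% confidence intervals, filled points called genes, and dotted lines 2-fold. TXNIP (-2.32 and -2.13) and SLC2A4 (-1.18 and -1.08) lie to the left in both, and SLC2A1 (0.49 and 0.59) to the right.

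The comparisons with TRAIL added gave no call at 2-fold. TRAIL+C3/C2 against C3/C2 gave 0 calls in either direction, against 1.59% higher and 2.13% lower among all genes, and TRAIL+SN against SN gave 0, against 0.908% and 0.164%. Both an unadjusted and an adjusted p under 0.05, at less than 2-fold, were reached by 2 members in the first (SLC2A4 at -0.57 and SLC2A8 at 0.23) and 3 in the second (SLC2A4 at -0.47, SLC2A6 at 0.33 and SLC2A10 at -0.47), beside the second SLC2A6 probe in both. These pairs lay on different slides, and slide and treatment cannot be told apart in them. The terms for whether TRAIL acted differently with C3/C2 gave 0 calls, against 0.493% and 0.164%, and those for SN gave 0, against 2.76% and 0.333%; 1 member (SLC2A4) and 4 (SLC2A4, SLC2A8, SLC2A13 and ARRDC4) had an unadjusted p under 0.05. For TXNIP these terms were 0.03 ± 0.31 and 0.22 ± 0.31, and for SLC2A1 -0.09 ± 0.13 and 0.01 ± 0.13 (SE). Scaled on spike-in controls, SLC2A4 was called lower in both comparisons (-1.10 and -1.06) and SLC2A10 in TRAIL+SN against SN (-1.06), while the median of all genes stood at -0.50 and -0.57 and the higher share of all calls went from 42.7% to 7.33% and from 84.7% to 5.41%. For the terms of TRAIL with C3/C2 and with SN that share was 75% and 89.2%, against 53.6% and 73.2% with the array median and 44.8% and 49.5% with spike-in controls.

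Other genes of glucose entry and sensing were read from 8 lists of 62 genes, of which 52 were tested. C3/C2 gave 5 higher and 3 lower calls among them, SN 9 and 2, TRAIL+C3/C2 7 and 3, and TRAIL+SN 12 and 3. The shares of all genes called higher and lower were 13.4% and 6.18%, 14.2% and 9.75%, 16.2% and 7.94%, and 16.1% and 10.1% in the same order, and nothing particular to the lists is read from these counts. TRAIL gave 0, although 22 of the 52 had an adjusted p under 0.05 and 24 an unadjusted one. C3/C2 moved the median of the 52 by 0.04 (log2), SN by 0.35 and TRAIL by 0.08, and the co-treatments with C3/C2 and SN by 0.22 and 0.30.

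Among the factors that act on TXNIP and ARRDC4, MLXIPL (ChREBP) rose in all 4 groups with C3/C2 or SN. Its log2 level was -2.81 ± 0.29 (SD, n = 4) in NT and -2.69 ± 0.37 with TRAIL. It was 1.33 ± 0.19 with C3/C2, 1.71 ± 0.22 with SN, 1.37 ± 0.03 under TRAIL+C3/C2 and 1.82 ± 0.45 under TRAIL+SN. The log2 changes against NT were 4.13 (adjusted p = 1.38e-13), 4.51 (2.50e-14), 4.18 (9.05e-14) and 4.63 (1.48e-14). MLXIP (MondoA) and MLX were tested and not called. None of the 3 tested transporters among the other SLC2A genes was called in any of the 5 comparisons with NT.

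The list of glucose phosphorylation and fructose bisphosphate control had 14 of 17 genes tested, of which 2 rose with C3/C2, 5 with SN, 2 under TRAIL+C3/C2 and 6 under TRAIL+SN, and none fell, against 13.4%, 14.2%, 16.2% and 16.1% of all genes called higher. PFKFB4, which sets the level of the phosphofructokinase activator, rose by 2.02 (log2) with C3/C2, 2.13 with SN, 2.18 under TRAIL+C3/C2 and 2.12 under TRAIL+SN. HKDC1, a hexokinase family member, rose by 1.02, 2.45, 1.49 and 2.68, the first of these close to the 2-fold limit. HK2, a hexokinase, and PFKP, a phosphofructokinase, were called with SN (1.34 and 1.20) and TRAIL+SN (1.33 and 1.30). The median log2 change of the 14 genes was 0.39, 0.66, 0.50 and 0.90 in these groups and 0.10 with TRAIL.

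Of the 14 tested genes of SLC2A4 vesicle trafficking, STXBP3, which binds syntaxins at the plasma membrane, fell in all 4 groups (log2 change -1.29, -1.69, -1.17 and -1.45). SORT1, the sortilin of storage vesicles, rose with SN (1.08) and STX4, the syntaxin of the plasma membrane, with TRAIL+C3/C2 (1.06). Among 4 tested regulators of the SLC2A4 gene, MEF2C was well above background on no NT or TRAIL array and on every array of the other groups. It was at least 3.35-fold higher with C3/C2, 4.82-fold with SN, 3.39-fold with TRAIL+C3/C2 and 4.70-fold with TRAIL+SN. MEF2D rose with TRAIL+SN (1.02).

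In the thioredoxin system, the thioredoxin reductase TXNRD3 fell by 1.04 with C3/C2, 1.29 under TRAIL+C3/C2 and 1.18 under TRAIL+SN, and TXNRD1, another reductase, rose by 1.12 with TRAIL+SN, among 5 genes tested. Among 5 tested relatives in the arrestin family, ARRB2 rose by 1.14 with SN, 1.23 under TRAIL+C3/C2 and 1.21 under TRAIL+SN. Among 5 tested genes of the list of sodium-glucose cotransporters and SWEET, SLC5A11 rose by 1.72 with C3/C2, 2.04 under TRAIL+C3/C2 and 1.33 under TRAIL+SN. SLC5A9 was well above background on 4 NT arrays, 1 C3/C2 array, 1 TRAIL array and none with SN or a co-treatment. It was called lower in the 4 groups with C3/C2 or SN, and where no array measured it the bound was at least 1.53-fold lower with SN and 1.10-fold lower with either co-treatment.

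The genes whose level followed each member most closely over the 24 arrays were found by Pearson's r, given as a description over arrays that share groups and slides. For SLC2A1 they were TTC25 (0.988), KRT80 (0.987) and TMEM45B (0.986), and for SLC2A4 they were ATG4A (0.996), GPRC5B (0.996) and SPEF1 (0.996). For TXNIP they were ARHGEF17 (0.963), TOMM40L (0.960) and RNF145 (0.954), and for ARRDC4 MYLIP (0.968), ZNF251 (0.966) and ACADSB (0.964). No gene was common to these 4 sets.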

How the data were processed

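RNA of 24 samples was labelled with Cy3 and hybridised to Agilent whole human genome arrays by the authors, and Agilent Feature Extraction (version 10.7.3.1 per the file headers) wrote a background-subtracted intensity for each spot. The deposited intensity is not normalized between arrays. The authors' own table holds the same intensity divided by the array median (largest departure 0.000852%); it was an alternative, and its 24 flag columns were not used. The deposited mean signal and local background intensity served only for the normexp alternative.

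Here, control and outlier spots were left out, spots of a probe averaged as log2 intensity, and the array's 75th percentile of 58717 spots subtracted. A probe was kept if all 4 arrays of some group read it well above background (27957 of 50599). Each of 20703 genes was represented by its brightest such probe. One limma model (R 4.3.3, limma 3.58.1) with 6 group means gave 12 comparisons, with Benjamini-Hochberg adjustment over all genes; genes at 2-fold or more and an adjusted p under 0.05 were called. Fold bounds used the lowest level well above background on each array of the dim group. The members and lists were chosen with earlier results of these data known. Text names all members, the 3 most similar genes for 4 of them, and genes of the lists called against NT, at most 4 a list by size of change. Promoters came from RefSeq (GRCh38.p14); probe positions are the files' own (hg19). Alternatives covered scaling, background, filter, probe, fit, slide and each array left out. The study describes 2 independent experiments in duplicate, without saying which replicate numbers share one. The fit treated the 4 arrays of a group as independent, so p-values measure the spread between these arrays, part of which may be technical. Residuals of replicates 1 and 2 against 3 and 4 correlated at a median of -0.17 (0 of 120 over 0.1). Different numbers within 1 and 2 or within 3 and 4 gave a median of 0.14 (43 of 60 over 0.1). Because residuals were taken from the group means, positive values within these pairs draw the values between them below 0. The negative median is therefore not separate evidence. Same-numbered arrays deviated together in 9 of 10 comparisons (every correlation of residuals over 0.1); in TRAIL+SN against NT the lowest was 0.089. On simulated data for C3/C2 against NT (20703 genes, 200 changed), 98% of changes of 1.5 and 99% of changes of 2 on the log2 scale were called. This simulation drew independent noise for each array and planted no smaller change, so it did not test calls near the 2-fold limit. No spot was saturated; the number of arrays limits precision.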

Additional observations from a re-analysis of the deposited data

Results flagged for a closer look

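For SLC2A4 the interaction term of TRAIL with C3/C2 was -0.91 ± 0.15 (SE; log2; adjusted p = 0.00157), and that with SN was -0.81 ± 0.15 (0.000782), which is what singled it out. Both terms rest on the levels in NT (-7.90) and TRAIL (-7.56), where the probe was well above background on 0 of 4 arrays each, and both are under 2-fold. Since levels at background carry no order, a different effect of TRAIL is not read from them. No member probe had an array whose gap to the others passed the 95% limit of Dixon's test in the 68 sets of 4 looked at, of which chance would give about 1 in 20.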

How the results depend on the processing

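Of 1398 values recomputed under 15 settings, 1319 kept their side of the threshold, 42 lost a call and 37 gained one. Of those called in either fit, 0 reversed direction. Uncalled values that changed sign count as kept, such as SLC2A6 under TRAIL+C3/C2 (0.61, and -0.11 with spike-in scaling). The authors' table repeats the array-median values within this total. Of 1008 values with 1 array left out, 20 changed side and 0 called values reversed. The number of members called against NT was 4 in C3/C2, 4 in SN, 1 in TRAIL, 2 in TRAIL+C3/C2 and 4 in TRAIL+SN, 2 in each SN against C3/C2 comparison and 7 for SN against TRAIL. With the array median, and in the authors' table alike, it became 1 for C3/C2, 1 for TRAIL+C3/C2, 1 for TRAIL+SN against TRAIL+C3/C2, 3 for SN against TRAIL and 1 for the interaction with C3/C2. Quantile normalization gave 2 for C3/C2. Spike-in scaling gave 2 for C3/C2, 1 for TRAIL+C3/C2, 2 for TRAIL+SN, 1 for SN against C3/C2, 1 for TRAIL+SN against TRAIL+C3/C2, 1 for TRAIL+C3/C2 against C3/C2, 2 for TRAIL+SN against SN and 1 for each interaction. Normexp gave 2 for C3/C2, 0 for TRAIL, 1 for TRAIL+SN against TRAIL+C3/C2 and 4 for SN against TRAIL. Probes well above background on all 24 arrays, which leaves out SLC2A4 and SLC2A12, gave 2 for C3/C2, 0 for TRAIL and 1 for TRAIL+C3/C2, SN against C3/C2 and TRAIL+SN against TRAIL+C3/C2. With no minimum fold the counts were 7, 7, 3, 6 and 7 against NT, 6 for SN against C3/C2, 2 and 3 for TRAIL added to C3/C2 and SN, and 1 for each interaction. With only the groups compared, TRAIL gave 0. Leaving out 1 array gave 2 to 4 for C3/C2, 0 to 1 for TRAIL and 1 to 2 for TRAIL+SN against TRAIL+C3/C2. The replicate block changed no member's call but moved 6 adjusted p-values under 0.05, all below 2-fold: TXNIP with C3/C2 (0.125 to 0.0101), SLC2A6 with SN (0.0625 to 0.0230), SLC2A13 with TRAIL and TRAIL+C3/C2 (0.00698 and 0.0122), and the interactions of TRAIL with SN for SLC2A13 and SLC2A8 (0.0225 and 0.0205). Other causes of these moves were not tested. Probes near background (SLC2A4 in NT and TRAIL, SLC2A3, SLC2A12) give only bounds or wide spreads, and comparisons across slides hold slide and treatment together.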
